A study of Arabidopsis thaliana with 27 samples.

Results

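A higher and a lower dose of UV-B were set against each other in xpf-3, a DNA repair mutant of Arabidopsis thaliana, by sequencing the small RNAs of dark-grown hypocotyls, the seedling stem below the seed leaves. The comparison covers 6 of the 27 libraries of the series, picked by their genotype and treatment labels: 3 xpf-3 libraries given 30000 µmol m-2 (the higher dose) and 3 xpf-3 libraries given 3000 µmol m-2 (the lower dose). The other libraries, also 3 a group, were xpf-3 kept dark, and uvr8-6 and the wild type (WT, Columbia-0) given the same 2 doses or kept dark. They entered the estimate of the spread and the tests between genotypes, and the dark libraries were not the reference. Every group, dark controls included, germinated for 2.5 days in darkness on filter paper with 0.5x MS medium and 100 µM GA4, a gibberellin, and went back to darkness after the treatment. The doses were set by the length of exposure, about 45 min or about 5 min, so dose and duration cannot be told apart. The extraction protocol gives 6 hours between exposure and excision, and the series title gives 2 days. No label says that replicates came from separate cultures, and the tests therefore measure only how far these libraries scatter, which may be a technical scatter.

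XPF is a subunit of the endonuclease that cuts damaged DNA on one side of a lesion during nucleotide excision repair, the pathway that removes UV photoproducts without light, and UVR8, altered in uvr8-6, is the UV-B photoreceptor. Plant microRNAs (miRNAs) are cut from hairpin transcripts of MIR genes, loaded into ARGONAUTE proteins, and pair almost fully with their target mRNAs, which are then cut or held back from translation. Many conserved families have several MIR genes that give the same mature sequence, and most of their targets are transcription factors. The assay reads small RNA only, so neither the XPF transcript nor marker transcripts of the hypocotyl could be used to check the labels. In bulk tissue, fewer cells of a type and less RNA per cell cannot be told apart.

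The mature sequences below carry the main comparisons, since the loci that differed or came nearest to the threshold belong to families whose copies share a mature sequence or a seed. Capitals mark bases 2 to 8 counted from the 5′ end, and all were read from the RefSeq annotation of TAIR10.1. The first line is shared by the 7 loci MIR169H to MIR169N, the next by MIR160A, MIR160B and MIR160C, and the third by MIR390A and MIR390B. The last pair shares its seed and differs near the 3′ end. All 323 miRNA loci of the counts matched a RefSeq gene by identifier.
miR169j: uAGCCAAGgaugacuugccug
miR160c-5p: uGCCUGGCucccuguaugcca
miR390a-5p: aAGCUCAGgagggauagcgcc
miR165a-3p: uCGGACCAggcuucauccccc
miR166g: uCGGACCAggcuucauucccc
MIR169B and MIR169C, among the most abundant loci, share a mature sequence with the same seed as miR169j after another first base.
miR169c: cAGCCAAGgaugacuugccgg
The counts were given per locus, so reads of a shared mature sequence can have been split between copies in a way the sources used here do not describe, and a difference in one copy may be a difference in that split.

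The xpf-3 libraries held 1535383, 1749367 and 1281814 counts after the higher dose, and 1116743, 1779421 and 1161724 counts after the lower dose. Counts of miRNA loci were 49720, 50373 and 41008 after the higher dose, against 43681, 43218 and 30511 after the lower dose. Over the 6 libraries 150 to 205 of the 323 miRNA loci had a read. Pairs of replicates differed by 14.7 to 30.3 times what counting error alone would give over miRNA loci (chi-square per degree of freedom, 6 pairs), which does not show whether they came from separate RNA samples. Values below are in CPM, the usual depth-scaled unit, here over miRNA counts alone with TMM factors, unless another base is named, and limits from counts cover counting error only.

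Few miRNAs differed between the doses. Of the 101 miRNA loci with enough reads to test, MIR160C was higher and MIR169J was lower after the higher dose at an adjusted p under 0.05 by edgeR's quasi-likelihood test, which is 1.98% of the loci tested (0.99% in each direction). At an unadjusted p under 0.05 there were 12 loci (11.9%), 7 higher (6.93%) and 5 lower (4.95%). Groups did not overlap at 9 loci that were higher (8.91%) and 8 that were lower (7.92%). The median log2 change over the tested loci with a read at either dose was 0.08, with 55 changes above 0 and 42 below. The loci with the largest changes in size had few reads, and none of them passed.

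**Figure D1:**
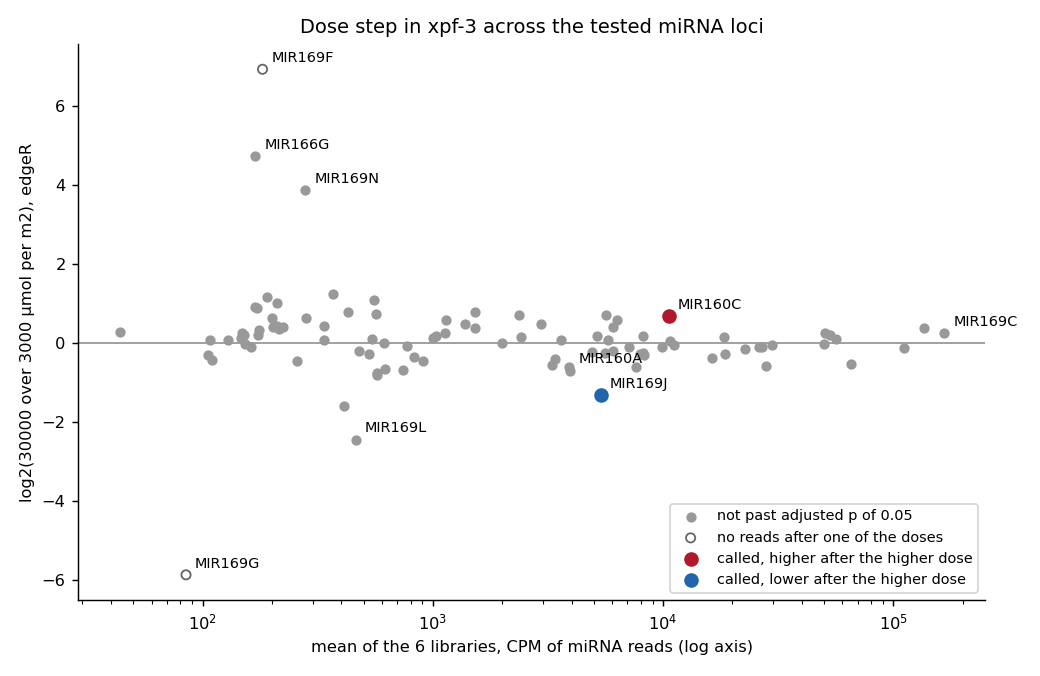
Log2 change (30000 over 3000 µmol m-2, edgeR) of each tested miRNA locus in xpf-3 against its mean CPM in the 6 libraries, on a log axis. MIR160C (log2 0.67) and MIR169J (-1.33) are the coloured points; MIR169F, MIR166G, MIR169N, MIR169L and MIR169G lie farther from 0 at low counts without passing the test.

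MIR169J fell after the higher dose. Its family targets NF-YA subunits of the CCAAT-binding factor NF-Y. It had 2194, 4419 and 2516 CPM after the higher dose, against 5024, 8226 and 9776 CPM after the lower dose. Every higher-dose library was below every lower-dose one, with 398 reads in all after the higher dose and 821 after the lower dose. The log2 change was -1.33 ± 0.31 (SE), or 2.51-fold lower, at an adjusted p of 0.023 by edgeR. Dark xpf-3 hypocotyls averaged 12895 ± 3599 CPM (SD, n = 3), so the means of the 3 treatments ran 12895, 7675 and 3043 CPM in order of dose. With each of the 6 libraries left out in turn the change lay between -1.64 and -1.12. The call was lost without higher-dose library I (adjusted p = 0.054) or III (0.0677) and without lower-dose library II (0.102) or III (0.154), as it was with only the 6 libraries in the fit (-1.36, 0.16). Scaled to all small RNAs in place of miRNAs, MIR169J was at -1.50 ± 0.32 (adjusted p = 0.010 by edgeR over the miRNA loci).

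Of the 7 copies with the miR169j sequence, MIR169J was the one called. It held 13.05%, 17.0% and 13.9% of the reads of MIR169H to MIR169N after the higher dose, against 24.3%, 29.8% and 24.6% after the lower dose. MIR169M, with the largest share, had 69.9 ± 4.77% after the higher dose and 62.6 ± 5.56% after the lower dose (SD, n = 3 each), and its own change was -0.37 ± 0.32 (adjusted p = 0.75 by edgeR). The 7 loci together averaged 20317 ± 4951 CPM after the higher dose and 29328 ± 9611 CPM after the lower dose, and the groups overlapped. These shares come from the same counts as the test of MIR169J and are no further support for it.

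MIR160C rose after the higher dose. The family targets auxin response factors that repress auxin-regulated genes. MIR160C had 10168, 12547 and 16228 CPM after the higher dose, against 7559, 8177 and 8749 CPM after the lower dose. The groups did not overlap, with 1665 reads after the higher dose and 905 after the lower dose. The log2 change was 0.67 ± 0.16, or 1.59-fold higher, at an adjusted p of 0.023 by edgeR. In order of dose, MIR160C averaged 12552 ± 2422 CPM in dark xpf-3, 8162 ± 595 CPM after the lower dose and 12981 ± 3053 CPM after the higher dose (SD, n = 3 each). The call held in the fits with RLE factors, with DESeq2 and without higher-dose library I, and was lost without each of the other 5 libraries, most without higher-dose library III (0.39 ± 0.17, adjusted p = 0.559). It was also lost with library totals alone (0.65, adjusted p = 0.124), with no filter on low counts (0.58, 0.451), with only the 6 libraries fitted (0.65, 0.29) and when scaled to all small RNAs (0.45, 0.61), all by edgeR.

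**Figure D2:**
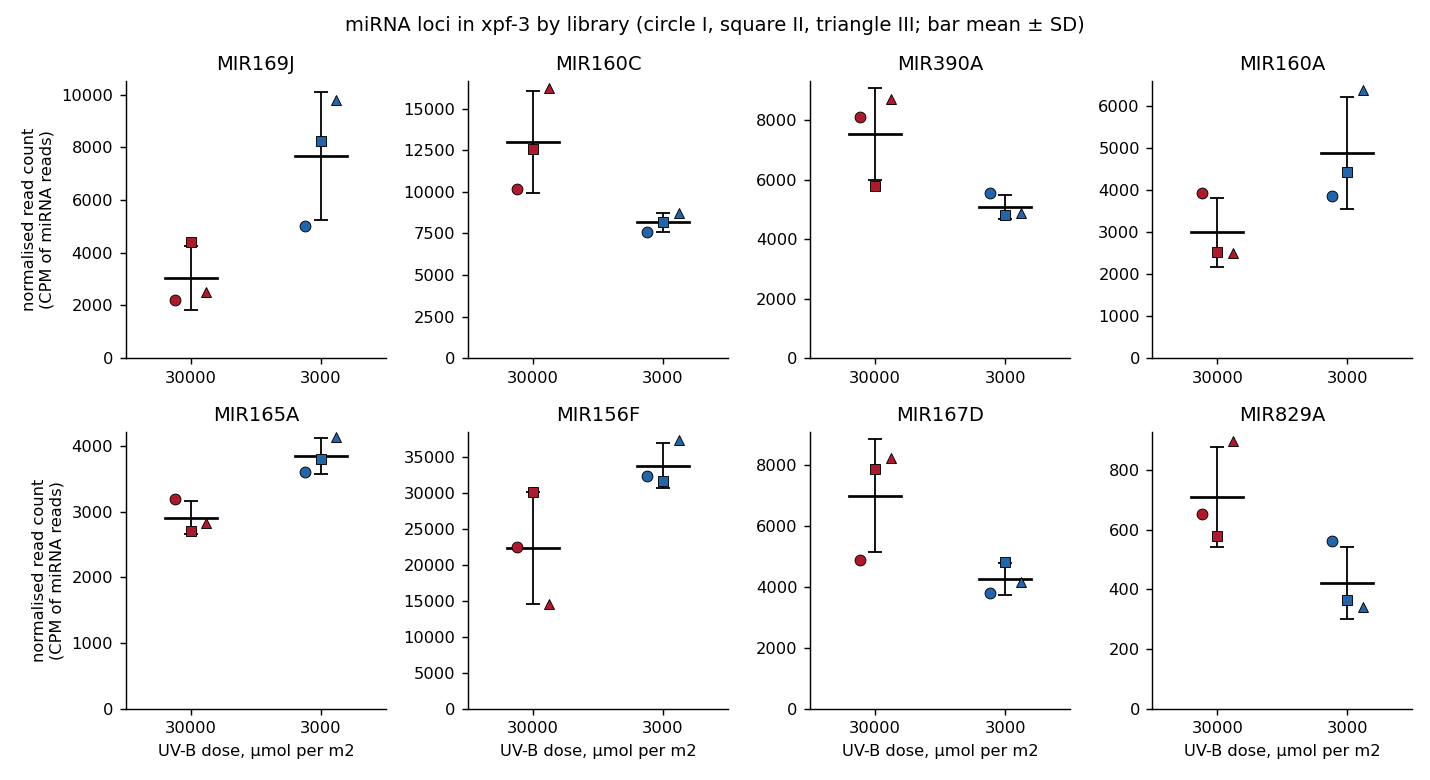
CPM in each xpf-3 library for MIR169J and MIR160C, which passed, and 6 loci that did not, with the higher dose left of the lower dose; bars are mean ± SD of 3 libraries. MIR169J sits between 2194 and 4419 CPM after the higher dose and between 5024 and 9776 CPM after the lower dose; in MIR160A alone of the 8 do the points of the groups overlap.

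Neither of the other MIR160 copies passed, and both lay on the other side of 0. MIR160A had 3932, 2532 and 2516 CPM after the higher dose, against 3858, 4427 and 6390 CPM after the lower dose. The groups overlapped by 1 library at log2 -0.70 ± 0.28 (adjusted p = 0.305 by edgeR). MIR160B had 8278, 3620 and 6163 CPM after the higher dose, against 8276, 10427 and 9015 CPM after the lower dose, with overlap, at -0.62 ± 0.37 (adjusted p = 0.509). MIR160C made up 45.4%, 67.1% and 65.2% of the MIR160 reads after the higher dose, against 38.4%, 35.5% and 36.2% after the lower dose. The shares of MIR160A and MIR160B were lower in every higher-dose library than in every lower-dose one. Within such shares a rise of one copy lowers the others. They come from the same counts as the test of MIR160C and are no further support for it. Summed over its 3 loci the family overlapped, with 22378, 18698 and 24907 CPM after the higher dose and 19693, 23032 and 24154 CPM after the lower dose. The means of this sum were 21995 CPM after the higher dose and 22293 CPM after the lower dose. The call for MIR160C thus stands beside a sum of copies that did not pass. In the fit over families the sum was at log2 -0.20 ± 0.18 (adjusted p = 0.68 by edgeR). That fit has its own TMM factors, with a median of -0.12 over all families, so -0.20 is not on the scale of the single loci. How reads were split between the copies is not given in the sources used here.

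**Figure D3:**
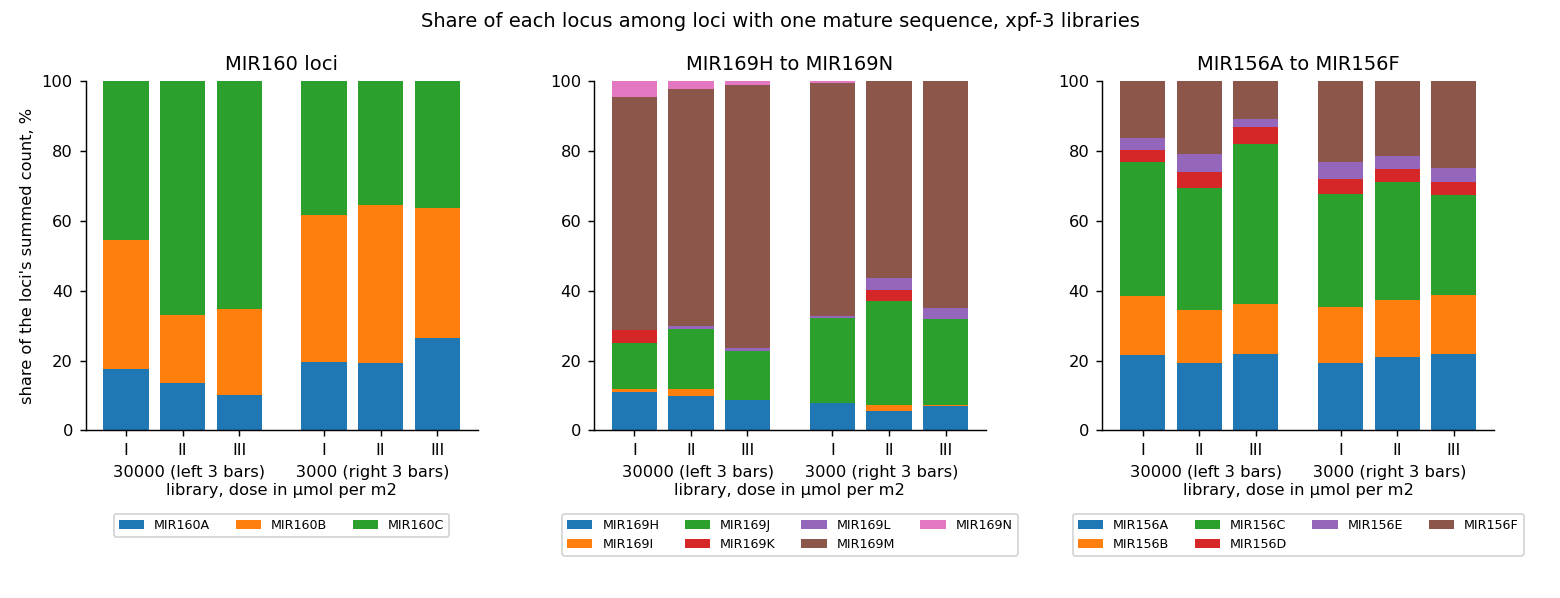
Share of each locus in the summed reads of loci with one mature 5p sequence, in the 3 higher-dose bars (left) and the 3 lower-dose bars (right) of xpf-3, in percent. MIR160C makes up 45.4% to 67.1% after the higher dose and 35.5% to 38.4% after the lower dose, MIR169J 13.05% to 17.0% against 24.3% to 29.8%, and MIR156F 11.01% to 20.8% against 21.4% to 25.0%.

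Of the 10 tested loci of the auxin list (MIR160, MIR167, MIR390 and MIR393), 1 was higher, none was lower and 9 did not pass, with a median log2 of 0.11 beside 0.08 over all tested loci. The higher one is MIR160C, the only higher call among all 101 tested loci (0.99%). MIR390A, whose miRNA starts the production of trans-acting siRNAs against auxin response factors, had 8126, 5796 and 8730 CPM after the higher dose, against 5540, 4814 and 4869 CPM after the lower dose. Its groups did not overlap, at 0.57 ± 0.22 (adjusted p = 0.305). Its twin MIR390B, with the same 5p sequence, was at 0.06 ± 0.17. MIR167D, from a family that targets auxin response factors that activate transcription, had 4867, 7861 and 8243 CPM after the higher dose, against 3791, 4814 and 4146 CPM after the lower dose. It too did not overlap, at 0.72 ± 0.31 (adjusted p = 0.305). MIR167A and MIR167B, which share another mature sequence, were at 0.16 ± 0.56 and 1.10 ± 0.75.

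Among the 14 tested MIR169 loci, 1 was lower, none was higher and 13 did not pass, with a median log2 of -0.06 beside 0.08 over all tested loci. The lower one is MIR169J, the only lower call among all 101 tested loci (0.99%), so this count adds no further result. MIR169D and MIR169E had no read at either dose. Low-count copies were on in some libraries and off in others. MIR169N had 35, 28 and 8 reads after the higher dose, against 4, 0 and 0 reads after the lower dose. The groups did not overlap, and the ratio of pooled levels was 15.3, with a 95% exact counting interval of 5.72 to 57.7, but the fit gave an adjusted p of 0.305. MIR169L had 0, 12 and 6 reads after the higher dose, against 6, 40 and 33 reads after the lower dose, and the groups overlapped. MIR169F had 38, 12 and 0 reads after the higher dose and none after the lower dose. It was 14.4-fold higher with the lower dose set at 3 counts over the group (adjusted p = 0.361 by edgeR). MIR169G had its 21 reads in lower-dose library II alone and none after the higher dose. It was 8.13-fold lower with the higher dose set at 3 counts (adjusted p = 0.40 by edgeR). Both ratios take the observed reads as fixed and leave out the scatter between libraries, so neither is a bound. MIR169F and MIR169G share their 5p sequence, as do the unread MIR169D and MIR169E.

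None of the abundant loci passed. MIR169C, the most abundant miRNA locus of the comparison, made up 16.6 ± 1.11% of the miRNA reads after the higher dose and 14.3 ± 1.24% after the lower dose (SD, n = 3 each), at log2 0.24 ± 0.26 (adjusted p = 0.785). MIR169A was at -0.13 ± 0.36, and at 0.14 without lower-dose library III. MIR169B was at 0.09 ± 0.39, at -0.40 without higher-dose library III and at -0.14 without lower-dose library I. The 10 most abundant loci together took 70.5 ± 0.136% of the miRNA reads after the higher dose and 68.5 ± 1.49% after the lower dose. The others among them were MIR158A (0.38 ± 0.28), MIR8175 (-0.54 ± 0.33), MIR396A (0.20 ± 0.25), MIR156C (0.26 ± 0.17), MIR822A (-0.02 ± 0.21), MIR156A (-0.06 ± 0.20) and MIR156F (-0.59 ± 0.26).

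Phase change is timed by miR156 and miR157, which repress SPL transcription factors in juvenile tissue, and by miR172, which represses AP2-like factors later. Of 12 tested loci none passed, with a median log2 of -0.11. MIR156F had 22465, 30135 and 14585 CPM after the higher dose, against 32276, 31645 and 37354 CPM after the lower dose. The groups did not overlap, and the change missed the threshold (adjusted p = 0.305). MIR156C, with the same miR156-5p, lay on the other side, at 53273, 50610.0 and 60805 CPM after the higher dose against 45038, 49959.5 and 42527 CPM after the lower dose, also without overlap (0.26 ± 0.17, adjusted p = 0.585). The summed 6 MIR156 loci had 138785 ± 6228 CPM after the higher dose and 145517 ± 5465 CPM after the lower dose (SD, n = 3 each), with overlap on this scale. MIR172E had 456, 266 and 514 CPM after the higher dose, against 740, 677 and 761 CPM after the lower dose, at -0.81 ± 0.46 (adjusted p = 0.482).

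None of the 22 tested loci of the growth list, families that target transcription factors of leaf, meristem and vascular growth, passed, and their median log2 was -0.15. MIR165A, whose family and MIR166 both target HD-ZIP III factors, had 3194, 2709 and 2825 CPM after the higher dose, against 3611, 3798 and 4146 CPM after the lower dose. Its groups did not overlap, at -0.40 ± 0.17 (adjusted p = 0.305). MIR166A, the MIR166 copy with the most reads, with the same mature sequence as MIR166G, was at -0.29 ± 0.23. MIR166G had 41, 4 and 0 reads after the higher dose, against 0, 0 and 1 read after the lower dose, a pooled ratio of 38.8 with a counting interval of 6.61 to 1565 in which higher-dose library I holds nearly all reads. MIR166D was not tested, since the filter on low counts over the 27 libraries removed it. It had 84 reads in 2 of the higher-dose libraries, against 1 read in 1 of the lower-dose libraries. The pooled ratio was 72.4, with a counting interval of 12.6 to 2892. JAW (MIR319A) and MIR319B, regulators of TCP factors, were at -0.30 ± 0.17 and -0.27 ± 0.19, both without overlap between the groups and with no call. MIR171B, which targets GRAS factors, had 152, 399.7 and 282 CPM after the higher dose, against 44.9, 121 and 266 CPM after the lower dose (1.005 ± 0.54, adjusted p = 0.482).

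In the remaining lists no locus passed. The silencing list (MIR162, MIR168 and MIR403, which target DCL1, AGO1 and AGO2) had 5 tested loci, of which MIR403 did not overlap, at 1390, 1199 and 1515 CPM after the higher dose against 919.6, 968 and 837 CPM after the lower dose (0.59 ± 0.28, adjusted p = 0.389). The 4 triggers of secondary siRNAs and resistance gene regulators lay between 0.08 and 0.49. The 3 tested loci of the nutrient list were MIR399B, a phosphate starvation miRNA, at -0.61 ± 0.32, MIR408 at -0.65 ± 0.49 and MIR399C at 0.07 ± 0.68. MIR858A, a regulator of MYB factors of the phenylpropanoid pathway, was at 0.09 ± 0.43. Over all tested loci 55 were above 0 and 42 below, with a median of 0.08. Of 12 young miRNAs, found in few species, 9 were above 0 and 3 below, with a median of 0.21. MIR829A among them had 652, 577 and 899 CPM after the higher dose, against 561, 363 and 342 CPM after the lower dose (0.74 ± 0.31, adjusted p = 0.305), and MIR158B was at 0.37 ± 0.22, both without overlap. Of the loci in no list, MIR5635a did not overlap either, at 217, 199.9 and 385 CPM after the higher dose against 179, 121 and 38.0 CPM after the lower dose (1.16 ± 0.65, adjusted p = 0.482).

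Summed by family, which avoids the split of reads between copies, no family of 55 tested passed (0%), by edgeR or by DESeq2. At an unadjusted p under 0.05 there were 7 families (12.7%), and all 7 were lower after the higher dose. The median over all families was -0.12, with 20 above 0 and 34 below, with the TMM factors of the family table. That median depends on the scaling: it was 0.0044 with RLE factors, 0.0067 with DESeq2, 0.011 with library totals and 0.030 with only the groups compared. It stayed below 0 with a replicate block (-0.092), with library sizes of all small RNAs (-0.163) and with each library left out (-0.138 to -0.013). The family values below may therefore include a shift of up to about the size of the TMM median. With RLE factors MIR172 was at -0.75 and MIR166 at -0.32. Groups did not overlap in 1 family that was higher (1.82%) and 8 that were lower (14.5%), on the same TMM scale. The lower ones include MIR156, whose summed loci overlap on the scale of the single loci, so this count depends on the scaling too. MIR172 had 528, 283 and 579.8 CPM after the higher dose, against 886, 798 and 863 CPM after the lower dose, without overlap (-0.87 ± 0.30, adjusted p = 0.236). MIR166 had 24667, 22798 and 20894 CPM after the higher dose, against 32326, 25682 and 35504 CPM after the lower dose, also without overlap (-0.45 ± 0.17, adjusted p = 0.236). MIR399 was at -0.73 ± 0.27 (0.236), MIR165 at -0.56 ± 0.23 (0.247) and MIR319 at -0.48 ± 0.20 (0.247). MIR8175 and MIR168 followed, at -0.72 ± 0.33 and -0.30 ± 0.14 (both 0.337). MIR169 as a whole was at -0.15 ± 0.22, a sign that turned with RLE factors, DESeq2, library totals, the 6 libraries alone and without lower-dose library III (0.16).

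Whether the dose step of xpf-3 differs from that of the other genotypes was tested as an interaction over all 27 libraries. Against WT, 3 of 101 miRNA loci passed (2.97%; 9 at an unadjusted p under 0.05, 8.91%), with MIR160A lower and MIR169N and MIR171B higher in the xpf-3 step, all at an adjusted p of 0.0452 by edgeR. MIR160A, given above in xpf-3, averaged 5772 ± 1580 CPM after the higher dose and 3172 ± 1118 CPM after the lower dose in WT (SD, n = 3 each), with overlap. Its step was -0.70 ± 0.28 in xpf-3 and 0.86 ± 0.29 in WT, a difference of -1.56 ± 0.40. MIR171B had 123, 145 and 126 CPM after the higher dose and 318, 573 and 565 CPM after the lower dose in WT, which did not overlap. Its step was 1.005 ± 0.54 in xpf-3 and -1.84 ± 0.55 in WT, a difference of 2.84 ± 0.77, on 36 and 14 reads in xpf-3 and 13 and 67 in WT. MIR169N had no read in WT after the higher dose and 27 in WT after the lower dose, so its fitted difference of 9.80 depends on the small count added in the fit and is no bound.

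All 3 calls were near the threshold, and no step of these loci passed within xpf-3 or WT. They held with RLE factors, library totals and DESeq2. They were lost with a replicate block (adjusted p = 0.0748 for each, by edgeR), with no filter on low counts, with only the groups compared and when scaled to all small RNAs. Leaving out 1 of the 12 libraries left 0 to 3 calls, and the 3 loci together passed only without WT lower-dose library II. MIR160A passed also without xpf-3 higher-dose library I, xpf-3 lower-dose library I or WT higher-dose library II, and its difference ranged from -1.80 to -1.13. MIR171B passed also without xpf-3 higher-dose library I or lower-dose library III, and MIR169N without xpf-3 lower-dose library I. Against uvr8-6 no locus passed (0%; 8 at an unadjusted p under 0.05, 7.92%; DESeq2 0), and MIR160A was again the locus of smallest p, at -1.41 ± 0.40 (adjusted p = 0.212), with a uvr8-6 step of 0.71 ± 0.29. MIR169J and MIR160C, the loci called in xpf-3, were not shown to have another step in WT, where they were at -0.81 ± 0.31 and 0.25 ± 0.16 (differences of -0.52 ± 0.44 and 0.42 ± 0.23, adjusted p = 0.80 and 0.514). In uvr8-6 they were at -0.32 ± 0.31 and 0.13 ± 0.16 (differences of -1.01 ± 0.43 and 0.54 ± 0.23, both at an adjusted p of 0.48).

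**Figure D4:**
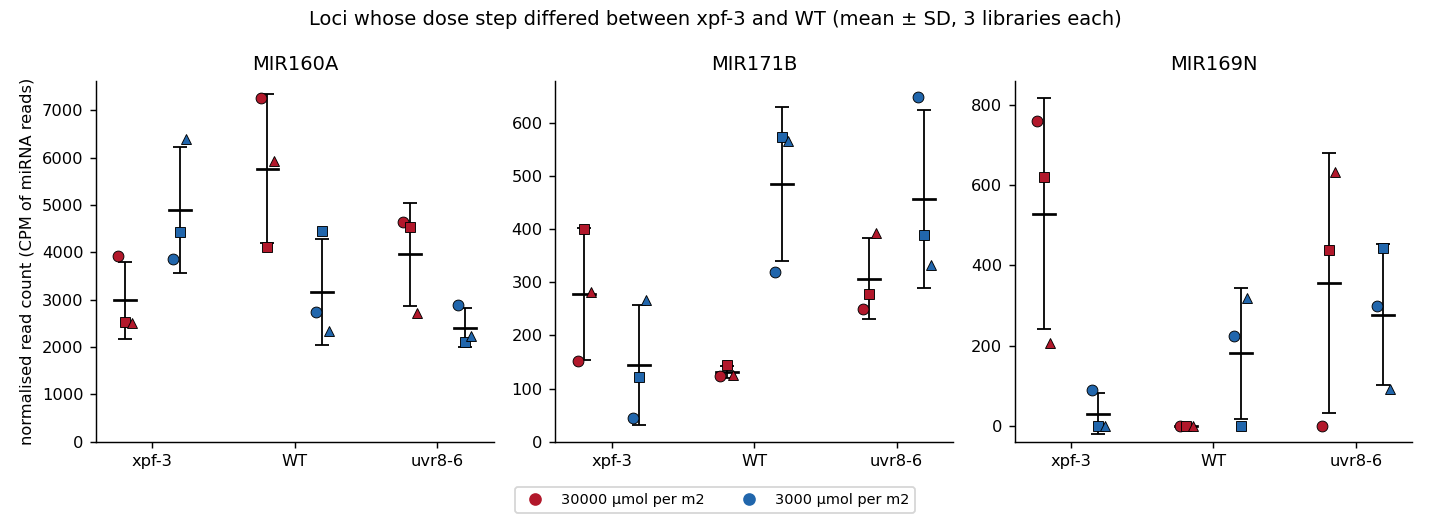
CPM of MIR160A, MIR171B and MIR169N in each library of xpf-3, WT and uvr8-6, with the higher dose left of the lower dose in each genotype; bars are mean ± SD of 3 libraries. In xpf-3 the mean of MIR160A is 2993 CPM after the higher dose and 4892 CPM after the lower dose, and in WT 5772 CPM and 3172 CPM; MIR169N has no read in the 3 WT libraries of the higher dose.

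Most reads were fragments of longer RNAs, and no class share passed a test between the doses. Fragments of rRNA took 76.6 ± 2.96% of counts after the higher dose and 79.0 ± 3.55% after the lower dose (SD, n = 3 each, exact permutation p = 0.4). Some rRNA loci had near-identical counts, such as AT2G01020 and another locus (2856864 and 2850322 counts over the 27 libraries). The rRNA share can therefore hold one fragment more than once. Fragments of snoRNAs, guides of rRNA modification, took 4.94%, 4.93% and 5.04% after the higher dose, against 4.34%, 3.79% and 4.01% after the lower dose. Fragments of snRNAs, parts of the spliceosome, took 3.73%, 3.75% and 3.41% after the higher dose, against 3.38%, 2.92% and 2.85% after the lower dose. Both classes did not overlap between the groups, at the smallest 2-sided exact permutation p that 3 against 3 libraries can give (0.1), and 0.25 after Benjamini-Hochberg adjustment over the 5 classes, so the design could not pass 0.05. The shares of tRNA, 11.7 ± 2.78% after the higher dose and 10.9 ± 2.31% after the lower dose, and of miRNA, 3.11 ± 0.197% and 2.99 ± 0.805% in the same order, overlapped. Fragments of chloroplast rRNA and tRNA took 1.80%, 2.11% and 5.16% of counts after the higher dose, against 1.79%, 1.81% and 2.38% after the lower dose, with higher-dose library III apart from the other 5. Within these shares a rise in one class lowers the others.

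**Figure D5:**
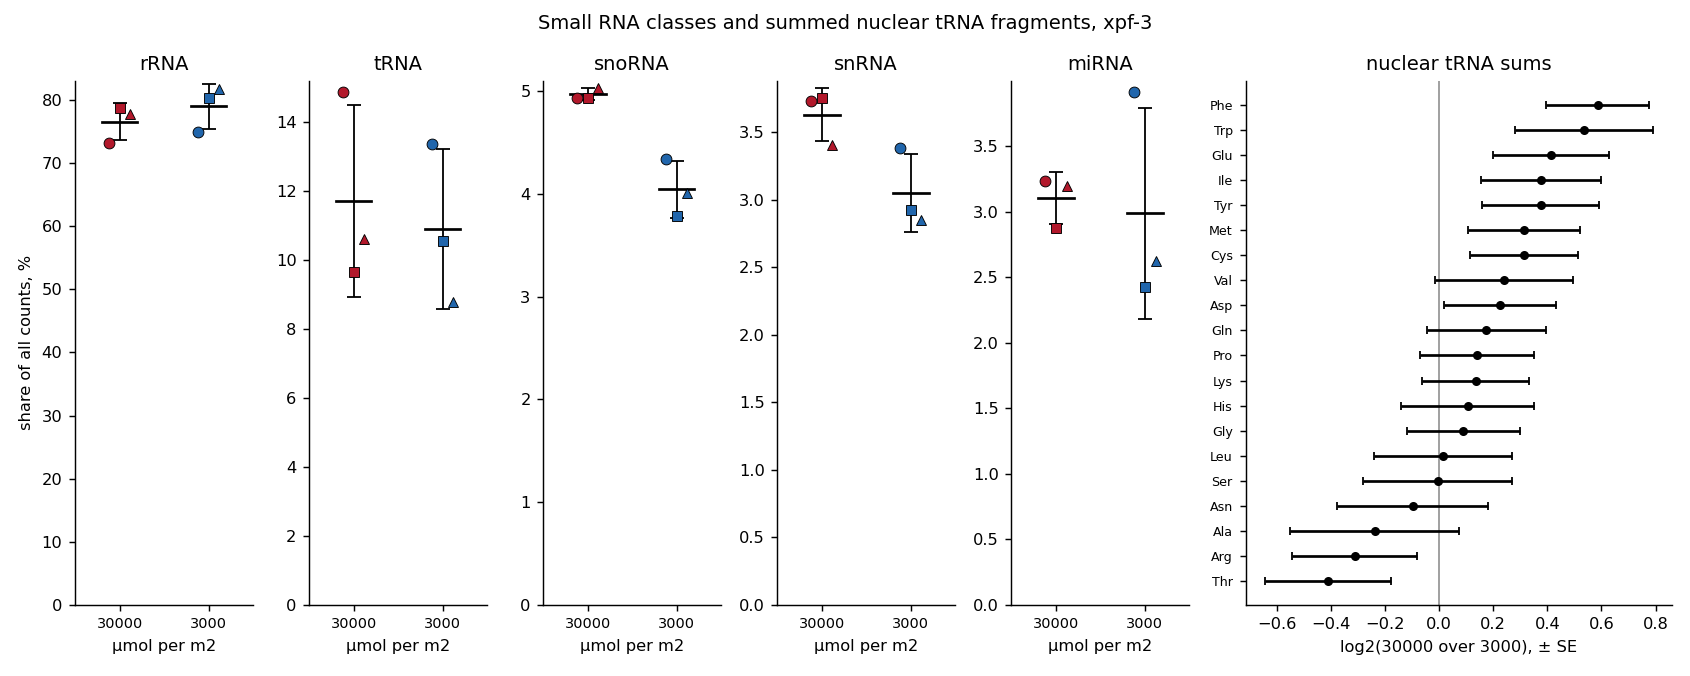
Share of all counts by class in each xpf-3 library, in percent, with the higher dose left of the lower dose (mean ± SD of 3 libraries), and log2 change ± SE of the summed nuclear tRNA fragments by amino acid. The snoRNA share is 4.93% to 5.04% after the higher dose and 3.79% to 4.34% after the lower dose; tRNA-Phe has the highest change of the nuclear tRNA sums, at 0.59.

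Over single loci of all small RNAs, none of 1109 tested passed by edgeR (0%), with 55 at an unadjusted p under 0.05 (4.96%), 19 higher (1.71%) and 36 lower (3.25%). Groups did not overlap at 74 loci that were higher (6.67%) and 100 that were lower (9.02%). The median log2 was 0.03 over all loci, 0.27 over the 481 tRNA loci (311 above 0, 170 below), -0.02 over the 318 snoRNA loci, -0.05 over the 97 snRNA loci, -0.16 over the 101 miRNA loci and -0.29 over the 112 rRNA loci. These medians depend on the TMM factors. Over all loci the median was 0.30 with library totals and 0.08 with RLE factors. Class medians were not computed with other scaling, so a median near 0 gives no direction for its class. The dose step of xpf-3 differed from that of WT or uvr8-6 at no locus by edgeR (0% each). Unadjusted, 49 loci (4.42%) against WT and 37 (3.34%) against uvr8-6 had a p under 0.05, and DESeq2 called 17 and 13 of the 1109. MIR169J had the smallest p in the xpf-3 comparison here too, at -1.50 ± 0.32 (adjusted p = 0.14 by edgeR). The rRNA locus AT2G01020 was at -0.42 ± 0.14, and the tRNA-Arg gene AT5G65535 at -1.09 ± 0.36 (both adjusted p = 0.968). The snoRNA locus AT4G39361 was at -0.51 ± 0.21 and a U5 snRNA copy at 1.10 ± 0.50 (both adjusted p = 0.968 by edgeR), each without overlap. DESeq2 called 18 of the 1109 loci, 16 higher and 2 lower: 14 tRNA loci, 3 U6 snRNA loci and MIR169J. Among the 3 U6 loci, 2 had equal counts in every library, so they can be one fragment under 2 names. Of these 18, 16 had no read in any lower-dose library and 1 none in any higher-dose library, 5 had reads in 1 of the 6 libraries alone, and 2 rested on 2 reads or fewer.

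Many copies had reads in some libraries and none in others. Among loci with at least 50 reads at one dose, 28 had no read in the lower-dose libraries and 3 had none in the higher-dose libraries, of which 4 and 1 had reads in all 3 libraries of the other dose. How many loci reach that depth in all was not counted, so no share is given. The loci were picked for having no read at one dose, so these counts are no test of a dose effect. The higher-dose libraries held more counts in total, and 2 of the 28, both U6 copies, had equal counts in every library. The part of depth in the imbalance was not tested. The U6 copy U6.11p had 1717, 1207 and 0 reads after the higher dose, against none after the lower dose. The whole of U6, a spliceosomal RNA with many near-identical genes, had 7968, 15495 and 6551 CPM of all small RNAs after the higher dose, against 6125, 7484 and 9969 CPM after the lower dose, with overlap. A tRNA-Asp copy had 94, 199 and 328 reads after the higher dose, against none after the lower dose, while tRNA-Asp as a whole had 2901, 2097 and 1998 CPM after the higher dose and 1915, 2328 and 1741 CPM after the lower dose. Both sums overlapped between the doses, as did U6.11p, with its 0 in higher-dose library III, whereas this tRNA-Asp copy did not.

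Summed over near-identical copies, none of 124 groups passed by edgeR (0%; 6 at an unadjusted p under 0.05, 4.84%). Groups did not overlap in 3 that were higher (2.42%) and 14 that were lower (11.3%). Of the 124 groups 55 were the miRNA families, here on the scale of all small RNAs. They made up 1 of the higher and 11 of the lower ones. Nuclear tRNA-Phe had 651, 606 and 580 CPM of all small RNAs after the higher dose, against 365, 448 and 410 CPM after the lower dose. The groups did not overlap, at 0.59 ± 0.19 (adjusted p = 0.635 by edgeR), and DESeq2 called it (0.66, adjusted p = 0.0340). Of the 20 nuclear tRNA sums 15 were above 0 and 5 below, with a median of 0.16, against -0.01 over all 124 groups. The median over all groups was 0.23 with library totals, 0.10 with only the groups compared and 0.13 with snRNA kinds taken from product names alone, so the scaling shifts these changes as a whole. Next came tRNA-Trp (0.54 ± 0.25), tRNA-Glu (0.41 ± 0.21), tRNA-Ile (0.38 ± 0.22) and tRNA-Tyr (0.37 ± 0.22), and at the low end tRNA-Thr (-0.41 ± 0.23), tRNA-Arg (-0.31 ± 0.23) and tRNA-Ala (-0.24 ± 0.31), none of which passed. Of 19 chloroplast tRNA sums 15 were above 0 and 4 below (median 0.15), and higher-dose library III, the one with the high chloroplast share, had the highest level of tRNA-Tyr, tRNA-Phe and tRNA-Glu among them; its part in the result was not tested. Of the snRNAs, U12 (-0.39 ± 0.21) and U4 (-0.32 ± 0.30) were lower without overlap, also without passing.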

How the data were processed

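Small RNA libraries of 27 samples (9 groups of 3) were made with the SMARter smRNA kit of Clontech, per the labels' protocols. FastQC and cutadapt are named in the submitters' processing notes. For the aligner, the counter, the genome build, the strand setting and the treatment of reads that match several loci, nothing is given in the sources used here. The authors deposited whole-number counts per locus, one table of all small RNAs and one of miRNAs, and these 54 columns were used. The other 272 columns, values per sample and group means in the authors' 6 normalized tables, were not used.

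Counts were tested with edgeR 4.0.16 in R 4.3.3 (quasi-likelihood F test, TMM factors, loci kept by filterByExpr at min.count = 10, all 27 libraries in 9 groups, 18 residual degrees of freedom, Benjamini-Hochberg within a table and comparison, called at an adjusted p under 0.05). The contrast was the higher minus the lower dose in xpf-3, and this step minus that of WT or uvr8-6. The SE of a log2 change was taken as its absolute value over the square root of the F statistic, so it is an approximation. Counts were also summed by miRNA family, tRNA amino acid and rRNA or snRNA kind. Limits set a group at 0 to 3 counts and take the pooled count of the other group as observed. Intervals are 95% exact binomial intervals of pooled counts. Class shares were tested by 2-sided exact permutation over 20 arrangements. Names and mature sequences came from RefSeq TAIR10.1. Of 938 loci with enough reads, 166 formed 83 pairs whose counts agreed within 2 counts or 2% in every library, so one fragment can stand under more than one locus.

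Loci named are the called ones, then those of smallest p up to 20, the 10 most abundant, called list members and some of the loci sharing their mature sequence. In each other class the 5 of smallest p were picked, and only some of the 5 are given. MIR408, MIR399C, MIR858A, MIR166D, the remaining members of short lists and loci without overlap were named after their values were seen. Members and lists were chosen with earlier results of these data known. Alternatives were RLE factors, library totals, DESeq2 1.42.0, no filter, only the groups compared, a replicate block, library sizes of all small RNAs, counts other than rRNA, and each library left out. Chosen after seeing the data were the single-locus scaling of the summed groups, snRNA kinds from product names alone, and leaving out one of each pair of loci with near-identical counts. Replicate numbers are the same in each group, and the deviations of same-numbered xpf-3 libraries correlated at 0.119, -0.0162 and 0.0242 over miRNA loci, so the numbers were not taken as pairs. Scripts were tested on simulated counts. Figures were drawn with matplotlib 3.10.9.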

Additional observations from a re-analysis of the deposited data

Results flagged for a closer look

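The change of 3 miRNA loci between the doses differed between xpf-3 and WT by a test of that difference (edgeR, adjusted p = 0.0452 each, 3 of 101 loci). For MIR160A the xpf-3 step minus the WT step was -1.56 on the log2 scale, with steps of -0.70 in xpf-3 and 0.86 in WT. For MIR171B it was 2.84, with steps of 1.005 in xpf-3 and -1.84 in WT, on 36 and 14 reads in xpf-3 and 13 and 67 reads in WT at the higher and the lower dose. For MIR169N it was 9.80, a fitted value that depends on the count added to the WT libraries of the higher dose, which held no read.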

How the results depend on the processing

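The 2 calls among miRNA loci remained 2, the same loci, with RLE factors, DESeq2 and the replicate block. There was 1 (MIR169J) with library totals, no filter and scaling to all small RNAs, 0 with only the groups compared, and 0 to 1 with a library left out. The 3 differences from WT became 0 with no filter, only the groups compared, the replicate block and scaling to all small RNAs, and 0 to 3 with a library left out. Among all small RNAs the 0 calls became 18 with DESeq2 and 0 to 1 with a library left out (1 without higher-dose library II). The differences from WT became 17 with DESeq2 and 1 with only the groups compared, and those from uvr8-6 13 and 2. Among summed groups DESeq2 called 1. The class shares of miRNA and tRNA, 0.117 and 0.81 points higher, turned to -0.771 and -2.14 points over counts other than rRNA, and ranged from -0.163 to 0.578 and from -0.771 to 2.04 points with a library left out.

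Of values that missed the threshold, some changed sign. With no filter MIR390B was at -0.070 and MIR167A at -0.014. Scaled to all small RNAs, which moved the miRNA median by -0.22, to -0.15 against 0.07, MIR390B was at -0.20, MIR167A at -0.18, MIR396A at -0.0041 and MIR169B at -0.069. The MIR169 family was at 0.0044 with RLE factors and DESeq2, 0.035 with library totals and 0.034 with only the groups compared. With a library left out the ranges were -0.14 to 0.0045 for MIR156A, -0.059 to 0.24 for MIR390B, -0.32 to 1.07 for MIR167A, -0.40 to 0.57 for MIR169B, -0.48 to 0.14 for MIR169A, -0.093 to 0.036 for MIR822A, -0.31 to 0.16 for the MIR169 family and -0.83 to 0.032 for the step of MIR169J minus that of WT. The causes were not tested. Nuclear tRNA-Phe was called with DESeq2 alone, and with snRNA kinds from product names alone, chosen after seeing the data, it was at 0.73 (adjusted p = 0.051 by edgeR).

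The replicate numbers were not shown to pair the libraries. With the replicate block MIR160A, MIR169N and MIR171B minus WT were at an adjusted p of 0.0748, and MIR169J and MIR160C at 0.0253 (edgeR). Depth limits the low loci: a locus at 0 in a group allows up to 3 reads there.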
